A study of Mus musculus with 8 samples.

Results

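The genes of the insulin-like growth factor (IGF) axis are described here in reprogrammed cardiac fibroblasts taken from the infarcted heart or from culture. The 10 genes were taken by symbol from the 54532 genes of the deposited table: the ligands *Igf1* and *Igf2*, the receptors *Igf1r* and *Igf2r*, and the binding proteins *Igfbp2* to *Igfbp7*. IGF1 and IGF2 are secreted growth factors that signal through the tyrosine kinase receptor IGF1R, whereas IGF2R carries IGF2 and mannose 6-phosphate tagged enzymes to lysosomes. The binding proteins hold IGFs outside the cell, prolong their life and set how much ligand reaches the receptor, and proteases release the ligand by cutting them. In the heart, IGF1 is known as a growth and survival signal for cardiomyocytes, and cardiac fibroblasts and macrophages are known sources of it.

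The cells were MICFs, cardiac fibroblasts isolated from the hearts of C57BL/6 mice after myocardial infarction (MI). Every sample, without exception, carried the label MGTMyoS overexpression, that is, doxycycline-inducible lentiviral Mef2c, Gata4 and Tbx5 in 1 polycistronic construct (MGT) with Myocd and Sall4, plus eGFP. The *in vivo* samples were eGFP+ cells sorted from hearts of C57BL/6 mice that had received the infected MICFs in the left ventricle right after coronary ligation, with doxycycline in the drinking water and immunosuppression by tacrolimus, methylprednisolone and mycophenolate mofetil. The *in vitro* samples were eGFP+ cells sorted from culture in reprogramming medium that, per the methods, held doxycycline, the TGF-β receptor inhibitor SB431542 and the JAK inhibitor baricitinib. Samples were taken at 1 week (Day 7) and 2 weeks (Day 14), with 2 libraries in each of the 4 groups and no group without the reprogramming factors. The animals or wells behind each library are not given in the sources used here, so p-values measure the spread between these samples, which may be technical. Host, immunosuppression and medium all differ between the *in vivo* and *in vitro* samples and cannot be told apart.

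Expression is given as FPKM, fragments scaled by transcript length and library size, so levels can be compared between genes. Each library held 12304242 to 14546904 fragments on genes, and 1 fragment on 1 kb of transcript was worth an FPKM of 0.0650 to 0.0905. Groups were compared by limma on log2(FPKM + 0.1) over the 15708 genes that reached an FPKM of 0.5 in 2 or more libraries. A gene was called higher or lower when its Benjamini-Hochberg adjusted p was below 0.01 and its change exceeded 1 on that log2 scale in either direction. On this scale the change of a gene with a low level is understated. Fibroblast markers (11 genes) summed to an FPKM of 10929 to 14782 *in vivo* and 2356 to 3808 *in vitro*. Macrophage markers (16 genes, none under an FPKM of 0.5 throughout) summed to 2165 to 3477 *in vivo* and 5382 to 6601 *in vitro*, so RNA of both kinds was present in all 8 libraries. In such bulk samples, fewer cells of a type and less RNA per cell cannot be told apart.

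Of the 10 genes, 9 passed the filter on low values and *Igf2* did not. *Igfbp7* was called higher *in vivo* at both weeks, and *Igfbp2*, *Igfbp3* and *Igfbp5* were called lower at both weeks. As background, 7.79% of all tested genes were called higher and 5.07% lower at the earlier time, against 9.02% and 8.05% at the later time. The median log2 fold change, *in vivo* over *in vitro*, of the 9 genes was -0.11 at 1 week and 0.10 at 2 weeks, beside -0.0058 and -0.0034 over all tested genes. The replicate libraries of a group lay a median of 0.10 apart on the log2 scale for these 9 genes, and 0.14 apart for all tested genes. The ligand and receptor genes and *Igfbp4* and *Igfbp6* were called in neither direction at either week.

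**Figure D1:**
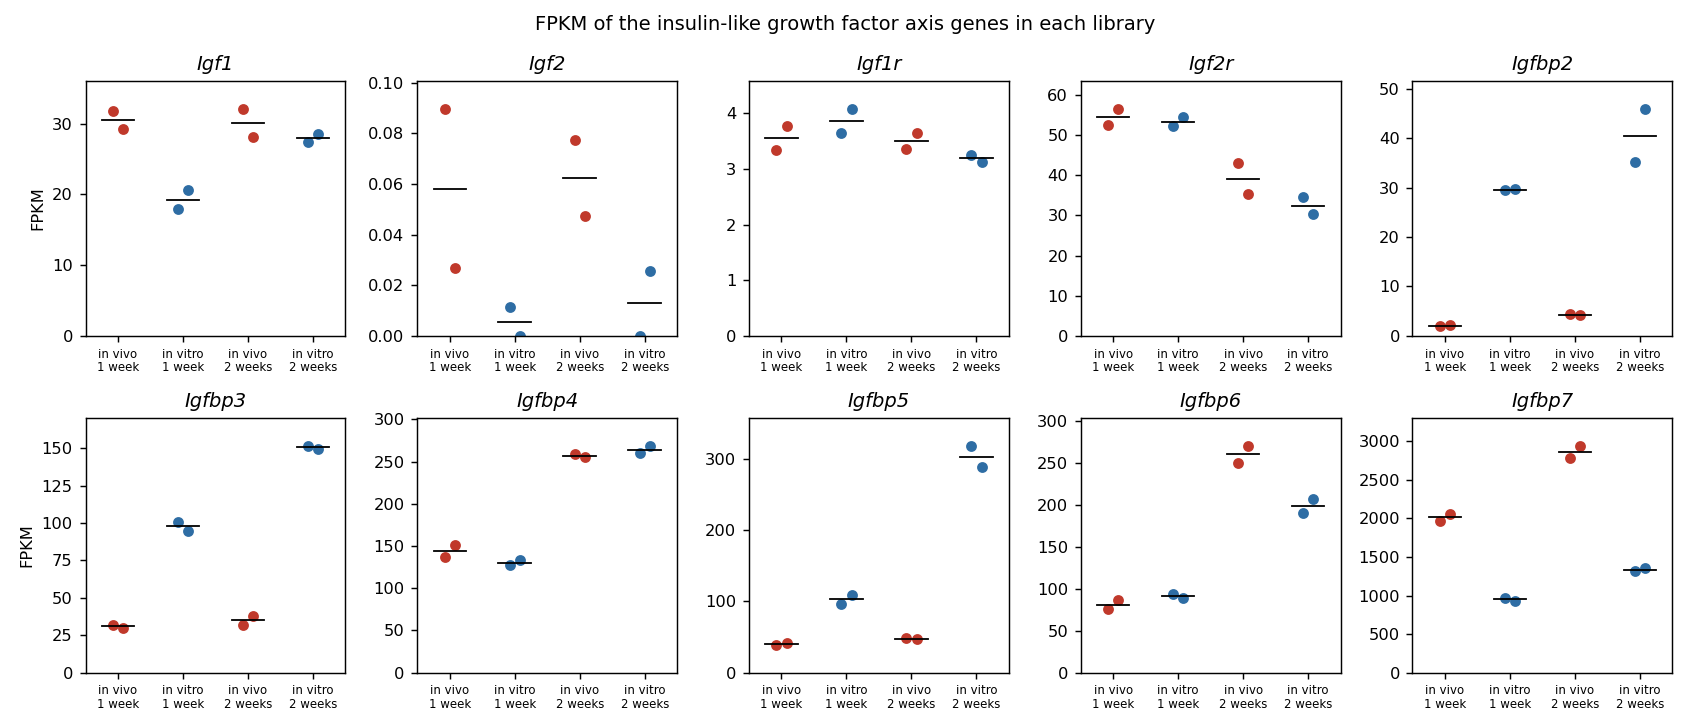
FPKM of each of the 10 genes (linear axis from 0, each panel with its own scale) in the 8 libraries, with *in vivo* libraries in red, *in vitro* libraries in blue and the group mean as a black line. *Igfbp2*, *Igfbp3* and *Igfbp5* lie far lower in the red than in the blue libraries, *Igfbp7* lies higher, and *Igfbp4* and *Igfbp6* separate by week.

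*Igf1* (ENSMUSG00000020053, chromosome 10 of GRCm38 from 87858265 to 87937042, plus strand) encodes the main ligand. At 1 week its FPKM was 31.8 and 29.2 in the heart and 17.9 and 20.6 in culture. By 2 weeks the values were 32.0 and 28.2 in the heart and 27.3 and 28.5 in culture. The 1-week culture libraries were thus the lowest, and the 2-week heart libraries overlapped those of both other groups. At 1 week the log2 fold change was 0.67 (95% interval 0.44 to 0.90, limma, Benjamini-Hochberg adjusted p = 0.0016), which missed the fold required for a call. Over the 20 alternative settings this 1-week value lay between 0.33 and 0.77. At 2 weeks the log2 fold change was 0.10 (95% interval -0.12 to 0.33, limma adjusted p = 0.40). The test of the difference between the weeks gave -0.56 (limma adjusted p = 0.048), which did not pass. Of the 16 macrophage markers, macrophages being a known source of *Igf1*, 2 were called higher and 1 lower *in vivo* at 1 week, against 1 and 8 at 2 weeks, and their part in the *Igf1* level was not tested.

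*Igf2* (ENSMUSG00000048583, chromosome 7 from 142650766 to 142666816, minus strand) is the fetal ligand, imprinted and expressed from the paternal copy. It was listed with 6 and 2 fragments at 1 week and 5 and 3 at 2 weeks *in vivo*, and with 1 and 0 fragments at 1 week and 0 and 2 at 2 weeks *in vitro*. The limit that a count of 0 allows, 3 fragments, corresponds to an FPKM of 0.0341 to 0.0475 in these libraries and covers counting error only. These counts cannot be read as absence of *Igf2*. Of the 16051 bases of the gene, 16048 lie within another annotated gene on the same strand, *Gm49394*, which was listed at 0 fragments in all 8 libraries. How fragments falling on both were counted is not given in the sources used here, and no fold is given for *Igf2*.

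*Igf1r* (ENSMUSG00000005533, chromosome 7 from 67952827 to 68233668, plus strand), the signalling receptor, had an FPKM of 3.35 and 3.78 in the heart and 3.65 and 4.07 in culture at 1 week. The 2-week values were 3.36 and 3.65 in the heart and 3.26 and 3.13 in culture. All 8 values fell within a narrow band. Heart over culture, the log2 fold change was -0.11 (95% interval -0.38 to 0.15, limma adjusted p = 0.46) and 0.13 (95% interval -0.14 to 0.40, limma adjusted p = 0.37), so a difference as large as the fold required for a call lies outside both intervals. *Igf2r* (ENSMUSG00000023830, chromosome 17 from 12682406 to 12769664, minus strand), the clearing receptor, was expressed at a higher level. Its FPKM was 52.6 and 56.4 in the heart against 52.2 and 54.5 in culture at 1 week, and 43.1 and 35.3 against 34.5 and 30.3 at 2 weeks. Both settings were lower at the later time, and the level *in vivo* and *in vitro* overlapped at 1 week. The log2 fold change was 0.03 at 1 week (95% interval -0.23 to 0.29) and 0.27 at 2 weeks (95% interval 0.01 to 0.53, limma adjusted p = 0.079). From 1 to 2 weeks the log2 change of *Igf2r* was -0.48 *in vivo* (limma adjusted p = 0.029) and -0.72 *in vitro* (limma adjusted p = 0.0053), both short of a call. *Igf2r* exceeded *Igf1r* in FPKM 15.3 ± 0.558 and 11.3 ± 2.23 times *in vivo* at 1 and 2 weeks, and 13.9 ± 0.666 and 10.1 ± 0.643 times *in vitro* (SD, n = 2 each). The antisense gene *Airn* overlaps *Igf2r* by 28354 bases and had an FPKM of 1.66 to 3.03. Whether the counting used strand is not given in the sources used here.

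Among the binding proteins, *Igfbp2*, *Igfbp3* and *Igfbp5* were the genes called lower in the heart than in culture. *Igfbp2* (ENSMUSG00000039323) and *Igfbp5* (ENSMUSG00000026185) are neighbours on chromosome 1, and the products of both carry heparin-binding stretches. *Igfbp2* runs from 72824503 to 72852474 on the plus strand and *Igfbp5* from 72857932 to 72874884 on the minus strand, tail to tail with 5457 bases between them, so their promoters lie at the outer ends of the pair. *Igfbp3* (ENSMUSG00000020427, chromosome 11 from 7206086 to 7213923, minus strand), the main IGF carrier of blood plasma, is placed the same way beside *Igfbp1*, with 3539 bases between those genes. *Igfbp7* (ENSMUSG00000036256, chromosome 5 from 77349240 to 77408041, minus strand) encodes a related secreted protein with low affinity for IGFs and lies alone. *Igfbp4* (ENSMUSG00000017493, chromosome 11 from 99041244 to 99054392, plus strand) encodes a soluble inhibitor of IGF action.

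The promoters of the genes called lower, of the gene called higher and of *Igfbp4* are set side by side. In the deposited values *Igfbp4* followed time more than setting. Each line gives the bases before the first RefSeq start on GRCm38.p6 that lie outside the gene as the deposited table gives it, 5′ to 3′ on the gene's strand, with GC boxes (GGGCGG on either strand) and TATA boxes (TATAAA on either strand) in capitals. The regions are chr1:72824380-72824479 (plus strand) for *Igfbp2*, chr1:72874885-72874965 (minus strand) for *Igfbp5*, chr11:7213924-7214023 (minus strand) for *Igfbp3*, chr5:77408046-77408145 (minus strand) for *Igfbp7* and chr11:99041144-99041243 (plus strand) for *Igfbp4*.
Igfbp2: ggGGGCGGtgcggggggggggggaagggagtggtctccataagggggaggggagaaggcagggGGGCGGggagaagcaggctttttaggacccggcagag
Igfbp5: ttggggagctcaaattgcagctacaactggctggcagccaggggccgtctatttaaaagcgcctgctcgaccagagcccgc
Igfbp3: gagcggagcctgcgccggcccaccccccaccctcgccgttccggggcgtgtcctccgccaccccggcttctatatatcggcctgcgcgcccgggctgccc
Igfbp7: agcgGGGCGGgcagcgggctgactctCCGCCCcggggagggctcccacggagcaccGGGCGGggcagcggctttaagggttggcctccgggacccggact
Igfbp4: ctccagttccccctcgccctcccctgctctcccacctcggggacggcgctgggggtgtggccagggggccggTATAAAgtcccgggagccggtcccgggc
All 10 symbols matched the RefSeq table, with 14 starts. Over the 250 bases before the first listed start, a GC box was found 3 times at *Igfbp2*, 4 times at *Igfbp7* and not at *Igfbp3*, *Igfbp4*, *Igfbp5* or *Igfbp6*. The letters TATAAA were found once each at *Igfbp4* and *Igfbp6* and not at the other 4 binding protein genes. Of all 32851 mouse promoters in that table, 32.7% held GGGCGG and 12.4% held TATAAA over the same length. The letters TGTTTAC (FOXO), TTCNNNGAA (STAT) and CAGACA (SMAD), searched on both strands, were in none of the binding protein promoters, and 3.17%, 7.02% and 17.1% of all promoters held them. Among the binding protein genes the E-box CACGTG was found once, at *Igfbp2*, and 6.02% of all promoters held it. These are matches of letters only, and the 3 genes called lower *in vivo* did not share any of these 6 motifs.

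At 1 week *Igfbp2* had an FPKM of 1.94 and 2.16 in the heart and 29.5 and 29.6 in culture. A week later the values were 4.41 and 4.17 in the heart and 35.2 and 45.8 in culture. Every culture library was above every library from the heart, and the group mean was 14.4 times as high in culture at 1 week and 9.45 times at 2 weeks. Ranked by FPKM among tested genes, *Igfbp2* stood between 1105 and 1558 in culture and between 7855 and 10650 *in vivo*. In log2 units the difference was -3.79 at 1 week (SE 0.13; limma, Benjamini-Hochberg adjusted p = 2.5e-06) and -3.20 at 2 weeks (SE 0.13, limma adjusted p = 4.1e-06). It was the largest change of the 9 genes at each week. The difference between the weeks, 0.59, was not called (limma adjusted p = 0.089).

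The FPKM of *Igfbp3* in the heart was 31.9 and 30.1 at 1 week and 31.8 and 38.1 at 2 weeks. In culture it was 100.7 and 94.8, and a week later 151 and 150. The level was 3.15 and 4.31 times as high in culture by the group means. This was a log2 fold change of -1.65 (SE 0.090, limma adjusted p = 2.1e-05) and, at 2 weeks, of -2.11 (SE 0.090, limma adjusted p = 5.6e-06). The difference between the weeks was -0.46 and was not called (limma adjusted p = 0.070).

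*Igfbp5* encodes a matrix-bound binding protein. In the heart its FPKM was 38.7 and 41.5 at 1 week and 48.7 and 46.8 at 2 weeks, and in culture it was 96.8 and 109 and then 318 and 288. Culture exceeded the heart 2.56 times at 1 week and 6.35 times at 2 weeks. Heart over culture, the log2 fold change was -1.35 (SE 0.083, limma adjusted p = 3.4e-05) and then -2.66 (SE 0.083, limma adjusted p = 1.6e-06). *Igfbp5* was the only one of the 9 genes whose change was called different between the weeks, at -1.31 (95% interval -1.58 to -1.03, limma adjusted p = 0.0034), where 1.15% of all tested genes were called in that direction and 0.573% in the other. The call was lost without any 1 of the 8 libraries, while the value stayed between -1.22 and -1.39. Each such fit leaves 1 library in a group, and fewer genes were called in this test over all tested genes.

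The calls of *Igfbp2*, *Igfbp3* and *Igfbp5* at 1 and 2 weeks held in all 20 alternative settings, each library left out in turn among them. Markers of mesothelial cells, the cells that line the heart's outer surface, moved with these 3 genes. The 9 mesothelial markers summed to an FPKM of 18.5 to 37.8 *in vivo* and 260 to 587 *in vitro*, with 8 of 9 called lower *in vivo* at each week, and *Muc16* was under an FPKM of 0.5 in all *in vivo* libraries. Cardiomyocyte markers (10 genes) summed to 16.4 to 48.8 *in vivo* and 166 to 1224 *in vitro*, with 7 of the 9 tested called lower *in vivo* at each week, *Pln* called higher at both weeks and *Myl2* at 2 weeks, *Myh6* and *Ttn* under 0.5 in all *in vivo* libraries and *Myl2*, *Pln* and *Ttn* under 0.5 in all *in vitro* libraries. The part of these cell types in the difference was not tested.

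*Igfbp7* was the most abundant of the 10 genes, at rank 7 to 20 by FPKM among all tested genes. Its FPKM was 1973 and 2059 in the heart against 969.9 and 927 in culture at 1 week, and 2784 and 2939 against 1316 and 1357 at 2 weeks. The groups did not overlap at either week, and the heart exceeded culture 2.13 and 2.14 times. The corresponding log2 fold changes were 1.09 (SE 0.086; limma, Benjamini-Hochberg adjusted p = 1.0e-04) and 1.10 (SE 0.086, limma adjusted p = 7.6e-05). The difference between the weeks was 0.01 (95% interval -0.28 to 0.30). The change lay close to the fold required for a call. Without the scaling between libraries that the deposited FPKM carry it was 0.75 and 0.77, with the median of all tested genes at -0.34 and -0.32, and after quantile normalization it was 0.86 and 0.82, so the call was lost at both weeks under either scaling while the direction held. Endothelial markers (11 genes) summed to 103 to 118 *in vivo* and 27.9 to 29.0 *in vitro* at 1 week. A week later the sums were 101 to 110 and 63.7 to 74.4. Of these markers 9 were called higher *in vivo* at 1 week and 5 at 2 weeks, with 0 lower. *Vwf* was under 0.5 in all *in vitro* libraries. Of 8 markers of vessel wall (mural) cells, 4 were called higher and 2 lower *in vivo* at 1 week. At 2 weeks 2 of the mural markers were called higher and 3 lower. The shares of all tested genes called are given above. At each week 7 of the 11 fibroblast markers were called higher *in vivo*. These 7 are genes of matrix proteins such as *Col1a1* and *Postn*, while the receptor gene *Ddr2* had log2 fold changes of -0.62 and -0.01, the surface marker gene *Thy1* -0.75 and -0.36, and *Pdgfra* and *Tcf21* 0.06 to 0.35. Their part in the result was not tested. *Polr2b*, with an FPKM of 15.0 to 19.4, overlaps *Igfbp7* by 85 bases at its 3′ end. The antisense gene *Gm34648*, with an FPKM of 0 to 1.07, overlaps *Igfbp7* by 7085 bases.

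For *Igfbp4* the 1-week FPKM was 137 and 151 in the heart and 127 and 133 in culture. The 2-week FPKM was 259 and 255 in the heart and 260 and 268 in culture. The level was higher at 2 weeks in both settings, and the deposited values of heart and culture were close at each week. Heart over culture, its log2 fold change was 0.14 at 1 week (95% interval -0.01 to 0.30) and -0.04 at 2 weeks (95% interval -0.20 to 0.12). The 2-week value depended on the scaling, at -0.48 after quantile normalization (limma adjusted p = 0.0024) and -0.37 without scaling between libraries (limma adjusted p = 0.0019), and the 1-week value turned to -0.14 and -0.20. *Igfbp6* (ENSMUSG00000023046, chromosome 15 from 102144362 to 102149511, plus strand) encodes a binding protein that prefers IGF2. Its FPKM was 76.0 and 86.4 in the heart against 93.9 and 88.7 in culture at 1 week, and 250.2 and 270.3 against 190.2 and 207 at 2 weeks. Culture was the higher at 1 week and the heart at 2 weeks, without overlap. The fold change on the log2 scale was -0.17 at 1 week (95% interval -0.37 to 0.03, limma adjusted p = 0.15) and 0.39 at 2 weeks (95% interval 0.19 to 0.59, limma adjusted p = 0.0082), under the fold required. After quantile normalization these values became -0.43 (limma adjusted p = 0.0054) and 0.06 (limma adjusted p = 0.56), and without scaling -0.51 (limma adjusted p = 0.0021) and 0.06 (limma adjusted p = 0.58). The difference between the weeks was 0.56 (limma adjusted p = 0.035), which was not called.

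**Figure D2:**
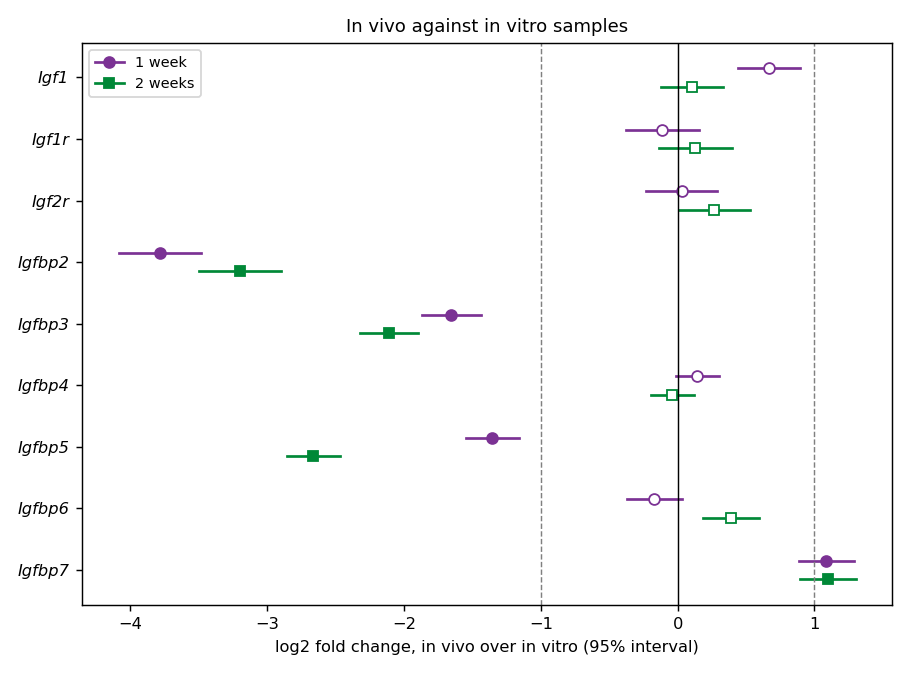
Log2 fold change, *in vivo* over *in vitro*, of the 9 tested genes at 1 week (purple circles) and 2 weeks (green squares), with 95% intervals as lines and filled symbols for called genes. *Igfbp2*, *Igfbp3* and *Igfbp5* lie left of the dashed line at -1 and *Igfbp7* lies just right of the dashed line at 1, at both weeks.

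The change with time was next compared within each setting. *Igfbp6* rose in both, and was the largest rise of the 9 genes *in vivo*. Its log2 change from 1 to 2 weeks was 1.68 *in vivo* (95% interval 1.48 to 1.88) and 1.12 *in vitro* (95% interval 0.92 to 1.32), and the limma adjusted p was 5.0e-04 in each. *Igfbp5* rose in culture by 1.56 (95% interval 1.36 to 1.76, limma adjusted p = 2.0e-04), while *in vivo* its log2 change was 0.25 (95% interval 0.06 to 0.45, limma adjusted p = 0.085). *Igfbp4* rose in culture by 1.02 (limma adjusted p = 3.1e-04), and its log2 change *in vivo* was 0.84 (limma adjusted p = 0.0010), short of the fold required. *Igfbp2* rose *in vivo* by 1.03 (limma adjusted p = 0.0040), and its log2 change in culture was 0.44 (limma adjusted p = 0.044). In all, 2 of the 9 genes were called higher at 2 weeks *in vivo*, where 1.23% of all tested genes were, and 3 in culture, where 2.76% were. By limma 0 were called lower, beside 0.949% of all tested genes *in vivo* and 1.05% in culture, and limma voom on recovered fragments also gave 0, although 1 gene, *Igf2r*, had an unadjusted p under 0.05 on the lower side in each setting.

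The rises of *Igfbp2* *in vivo* and *Igfbp4* in culture lay at the threshold. The *Igfbp2* call was lost without any 1 of the 4 *in vivo* libraries (0.96 to 1.10 on the log2 scale) or without either 1-week culture library. The *Igfbp4* call was lost without replicate 1 at 1 week (0.99) or replicate 2 at 2 weeks (0.99 as well) in culture. *Igf1*, *Igfbp3* and *Igfbp7* had log2 changes of 0.54, 0.62 and 0.49 in culture (limma adjusted p of 0.0091, 0.0045 and 0.0083), all under the fold required. *In vivo* the log2 change was -0.02 for *Igf1* (95% interval -0.25 to 0.21), 0.17 for *Igfbp3* (95% interval -0.05 to 0.38) and 0.51 for *Igfbp7* (95% interval 0.30 to 0.71).

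**Figure D3:**
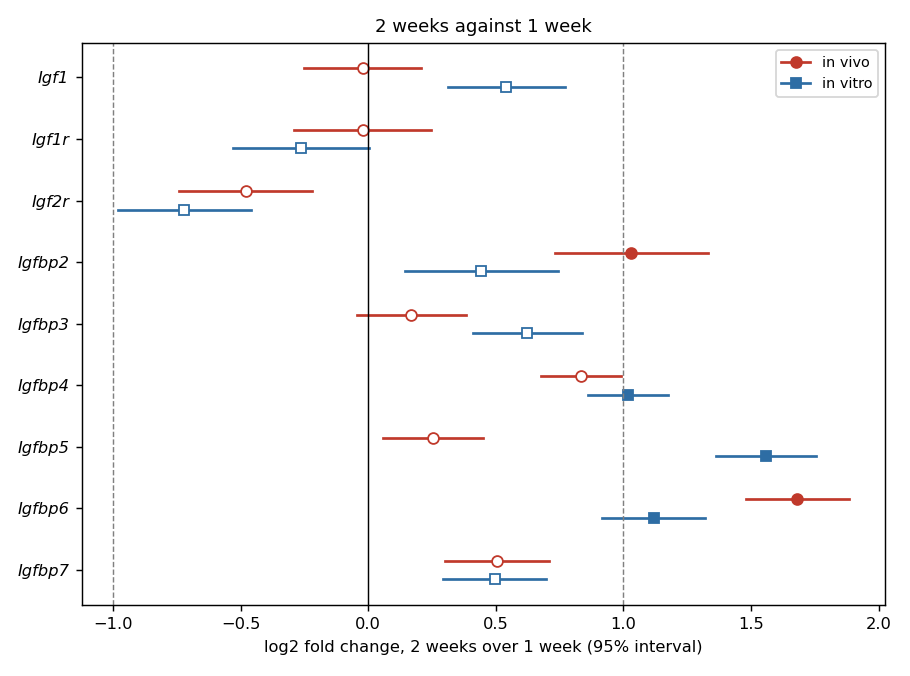
Log2 fold change from 1 to 2 weeks of the 9 tested genes *in vivo* (red circles) and *in vitro* (blue squares), with 95% intervals as lines and filled symbols for called genes. *Igfbp6* rose in both settings, and *Igfbp5* changed by 1.56 in culture and 0.25 *in vivo*.

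Because FPKM can be added across genes, the 6 binding protein genes were also summed. At 1 week their summed FPKM was 2314 ± 78.5 in the heart against 1400 ± 25.3 in culture, and at 2 weeks 3466 ± 124 against 2293 ± 32.1 (SD, n = 2 each). *Igfbp7* made up 87.1% ± 0.326 and 82.6% ± 0.213 of the sum *in vivo* at 1 and 2 weeks, and 67.7% ± 0.924 and 58.3% ± 0.457 *in vitro*. With *Igfbp7* left out the order turned, and the remaining sum was 298 ± 17.7 and 604 ± 14.3 *in vivo* and 452 ± 4.78 and 957 ± 2.89 *in vitro*. Of that remaining sum, *Igfbp4* and *Igfbp6* together held most *in vivo*. *Igfbp4* took 48.3% ± 0.315 and 42.5% ± 1.46 of it *in vivo* at 1 and 2 weeks, and *Igfbp6* 27.2% ± 0.834 and 43.1% ± 1.33. In culture *Igfbp5* took 22.7% ± 1.64 and then 31.7% ± 2.31, whereas *in vivo* it took 13.4% ± 0.128 and then 7.91% ± 0.420. *Igfbp2* took 6.54% ± 0.0467 and 4.24% ± 0.770 in culture, and 0.687% ± 0.0112 and 0.711% ± 0.0456 *in vivo*. With 2 libraries a group these shares are a description, as a two-sided exact permutation test of 2 against 2 cannot give a p under 0.333.

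**Figure D4:**
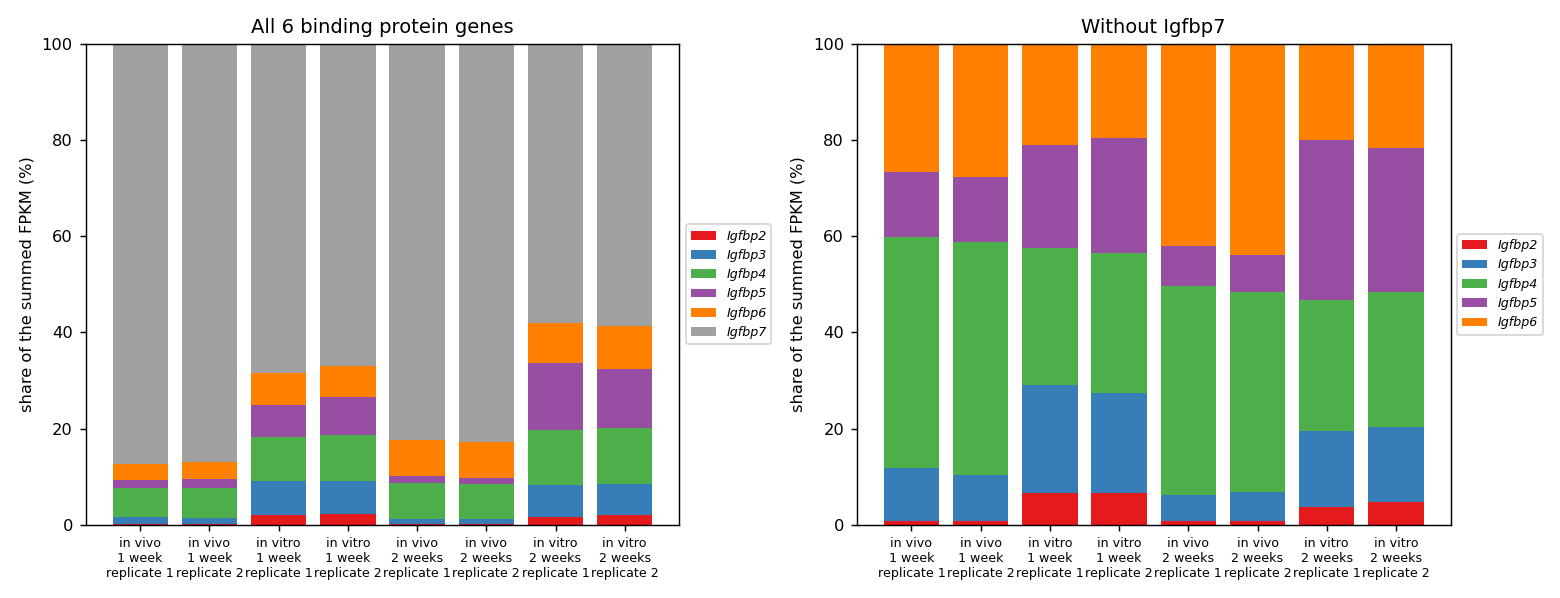
Share (%) of the summed FPKM of the binding protein genes held by each gene in the 8 libraries, for all 6 genes (left) and without *Igfbp7* (right). *Igfbp7* takes most of every bar on the left, and on the right *Igfbp5* (purple), *Igfbp3* (blue) and *Igfbp2* (red) take more of the culture bars than of the *in vivo* bars.

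The ratio of the binding protein sum to the listed ligand sum, nearly all of it *Igf1*, was 75.9 ± 7.30 in the heart and 73.3 ± 8.54 in culture at 1 week. A week later it was 116 ± 14.7 and 82.1 ± 1.34. Heart and culture overlapped at 1 week and did not at 2 weeks. Without *Igfbp7* the ratio was 9.80 ± 1.19 and 20.1 ± 2.31 *in vivo* and 23.6 ± 2.08 and 34.2 ± 0.935 *in vitro*, the higher in culture at each week (SD, n = 2 each). These ratios are of transcript levels, and the *Igf2* part is uncertain as given above.

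The genes whose pattern was most like that of a member were taken as the 2 with the highest Pearson correlation of log2(FPKM + 0.1) over the 8 libraries, among 7101 protein-coding genes whose mean FPKM reached 5. The points fall into 4 groups, so these correlations mainly compare group means and are a description. They do not take the size of a change into account. For *Igfbp2* they were *Upk1b* (r = 0.998), itself 1 of the 9 mesothelial markers, and *Prkar1a* (r = 0.998). *Upk1b* had a mean FPKM of 1.70 and 4.27 *in vivo* at 1 and 2 weeks and 71.2 and 107 *in vitro*. For *Prkar1a* the means were 83.6 and 96.2 *in vivo* and 150 and 164 *in vitro*. For *Igfbp5* they were *Cldn15* (r = 0.999), a claudin of tight junctions, and *Gclc* (r = 0.994), and for *Igfbp3* they were *Eml2* and *Myl4* (r = 0.998 each), the latter the atrial essential myosin light chain. For *Igfbp7* they were the complement gene *C7* and the matrix protease gene *Mmp2* (r = 0.999 each). *Mmp2* had a mean FPKM of 668 and 1119 *in vivo* and 212 and 356 *in vitro*. For *C7* the means were 6.93 and 47.8 *in vivo* and 0.0243 and 0.764 *in vitro*, a far wider range than that of *Igfbp7*. *Igfbp4* went with *Mgl2* (r = 0.995), a lectin gene of macrophages and dendritic cells, and *Arl4d* (r = 0.989), *Igfbp6* with *Dirc2* and *Id1* (r = 0.990 and 0.988), and *Igf1* with *Atf3* and *Foxs1* (r = 0.986 and 0.984). *Igf2r* went with *Atp11a* and *Prrc2c* (r = 0.994 and 0.985) and *Igf1r* with *Ankrd28* and *Mast2* (r = 0.963 and 0.935).

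Genes that act on the axis from outside the receptor were taken from a list of 18 secreted regulators, growth hormone pathway genes and *Igf2*-linked genes, of which 12 were tested. At 1 week 4 were called higher (*Htra3*, *H19*, *Stc2* and *Pappa*) and 1 lower (*Stc1*) *in vivo*. A week later 2 were called higher (*Htra3* and *Stc2*) and 2 lower (*Stc1* and *Igf2bp2*). The shares of all tested genes were 7.79% higher and 5.07% lower at the earlier time, with 9.02% higher and 8.05% lower at the later one. The median log2 fold change of the 12 was 0.20 and 0.03, beside the medians over all tested genes given above. *Htra3*, a secreted serine protease gene, had an FPKM of 121 and 126 in the heart against 9.66 and 8.87 in culture at 1 week, and of 289 and 303 against 28.6 and 24.5 at 2 weeks. For *Htra3* the log2 fold change was 3.73 (limma adjusted p = 6.9e-07) and 3.48 (limma adjusted p = 8.4e-07), and these calls held in all 20 alternative settings. Its relative *Htra1*, whose product cuts IGFBP5, had log2 fold changes of -0.78 and -0.61 (limma adjusted p of 1.1e-04 and 2.8e-04), under the fold required.

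*Pappa* encodes the metalloprotease that cuts IGFBP4 and frees IGF, and the stanniocalcins *Stc1* and *Stc2* encode its inhibitors. *Pappa* had an FPKM of 7.20 and 6.78 in the heart against 3.42 and 3.09 in culture at 1 week, and of 3.48 and 2.78 against 1.52 and 1.53 at 2 weeks. For *Pappa* the log2 fold change was 1.08 at 1 week (limma adjusted p = 7.4e-04) and 0.98 at 2 weeks (limma adjusted p = 9.0e-04, under the fold required). The 1-week call of *Pappa* was lost without replicate 1 of the 1-week *in vivo* libraries (1.04). Over the 20 alternative settings the 1-week value of *Pappa* lay between 0.75 and 1.15, at its lowest under the fold required. *Stc2* had an FPKM of 10.1 and 11.6 in the heart against 4.03 and 3.97 in culture at 1 week, and of 27.6 and 30.8 against 3.37 and 3.34 at 2 weeks. Its log2 fold change grew from 1.42 to 3.08, and the difference of 1.67 was called (limma adjusted p = 0.0031), a call lost without any 1 of 7 libraries, all but replicate 2 of the 2-week *in vivo* libraries (1.57 to 1.76). *Stc1* was the lower *in vivo*, with an FPKM of 0.916 and 1.34 against 2.28 and 2.84 at 1 week and of 1.10 and 1.55 against 4.62 and 4.15 at 2 weeks. The fold change in log2 units was -1.13 and -1.67 (limma adjusted p of 0.0081 and 0.0012), and the 1-week call was lost without any 1 of 6 libraries, that is, all but the 2-week *in vivo* ones (-0.88 to -1.38), and the 2-week call without replicate 1 of the 2-week *in vitro* libraries (-1.60). The 2 stanniocalcin genes thus went in opposite directions.

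*H19*, the imprinted long non-coding RNA gene 72622 bases from *Igf2*, had log2 fold changes of opposite sign at the 2 times. Its FPKM was 66.5 and 74.1 in the heart against 18.8 and 18.9 in culture at 1 week, and 29.1 and 23.7 against 45.6 and 49.4 at 2 weeks. This gave a log2 fold change of 1.89 at 1 week (limma adjusted p = 2.5e-05) and -0.85 at 2 weeks (limma adjusted p = 6.9e-04, under the fold required), and the difference of -2.74 was called (limma adjusted p = 0.0011), a call lost without any 1 of 6 libraries, all but the 2-week *in vivo* ones (-2.66 to -2.82). *Igf2bp2*, an RNA-binding protein gene, had log2 fold changes of -0.80 and -1.49. The growth hormone receptor gene *Ghr*, *Stat5a*, *Stat5b*, the feedback inhibitor *Socs2* and *Adamts1* were not called, with log2 fold changes between -0.59 and 0.71. *Igfbp1*, *Igfals*, *Igfbpl1*, *Pappa2*, *Igf2bp1* and *Igf2bp3* did not pass the filter on low values.

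**Figure D5:**
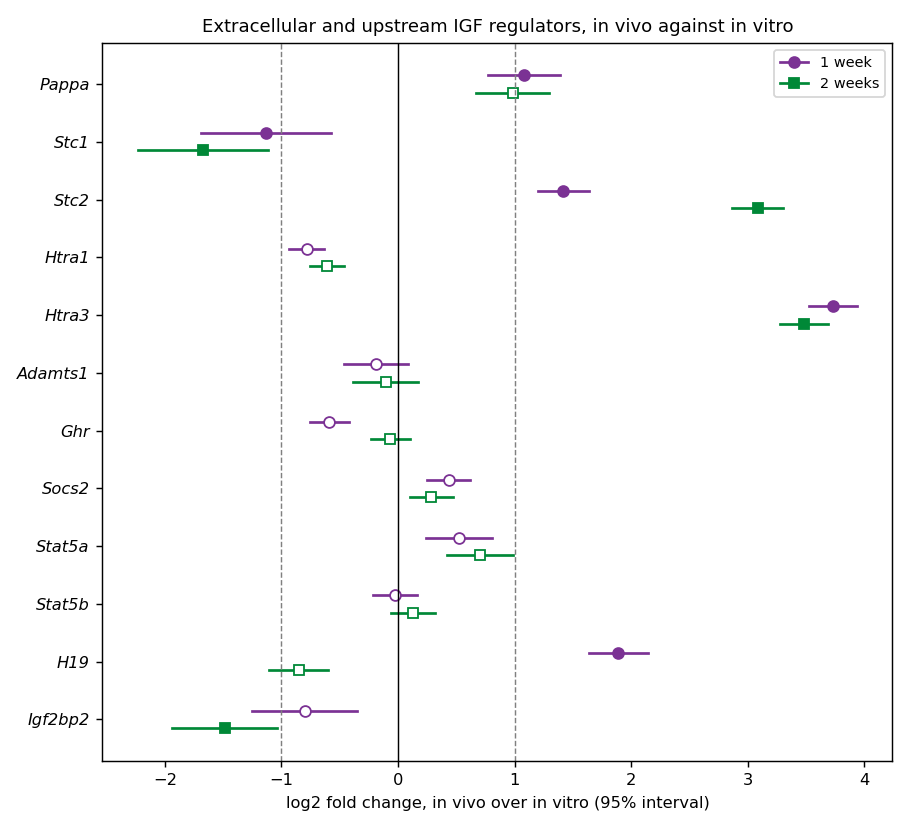
Log2 fold change, *in vivo* over *in vitro*, of the 12 tested extracellular and upstream regulators at 1 week (purple circles) and 2 weeks (green squares), with 95% intervals as lines and filled symbols for called genes. *Htra3* and *Stc2* lie right of 1 at both weeks, *Stc1* lies left of -1, and *H19* lies on opposite sides of 0 at the 2 times.

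Inside the cell, 35 of 36 listed genes of insulin and IGF receptor signalling were tested. The calls *in vivo* were 2 higher and 0 lower at 1 week, against 3 and 1 a week later. Each of these shares was under that of all tested genes given above. By limma 12 of the 35 had an unadjusted p under 0.05 on the lower side at 1 week and 7 on the higher side. Of all 15708 tested genes, 7942 had an unadjusted p under 0.05 at 1 week in either direction. The counts of the list are thus no result about these genes. At 1 week limma voom on recovered fragments also called 0 lower. The median log2 fold change of the list was -0.08 and 0.0054. *Irs1*, the docking protein that links the receptors to PI3-kinase, had an FPKM of 2.38 and 2.43 in the heart against 0.980 and 1.17 in culture at 1 week, and of 3.36 and 3.12 against 0.482 and 0.499 at 2 weeks. For *Irs1* the log2 fold change was 1.10 (limma adjusted p = 0.0015) and 2.50 (limma adjusted p = 2.7e-05), with a difference between the weeks of 1.40 that was not called (limma adjusted p = 0.012). The 1-week call was lost without either 1-week *in vivo* library or without replicate 1 of the 1-week *in vitro* libraries (0.98 to 1.11). *Grb14*, an adaptor that inhibits the insulin receptor kinase, had an FPKM of 5.03 and 5.0 in the heart against 0.995 and 1.57 in culture at 1 week, and of 6.93 and 7.13 against 2.62 and 2.35 at 2 weeks. For *Grb14* the log2 fold change was 1.92 and 1.47. At 2 weeks the cytokine signalling inhibitor *Socs1* was called higher (1.11) and the PI3-kinase catalytic subunit gene *Pik3cb* lower (-1.14). The *Socs1* call was lost without any 1 of 7 libraries, that is, all but replicate 2 of the 2-week *in vivo* libraries (0.78 to 1.14), and the *Pik3cb* call was lost without that replicate (-0.96).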

How the data were processed

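Gene-level RNA sequencing of 8 libraries in 4 groups was used, from libraries made with a SMARTER mRNA-Seq kit. The authors deposited FPKM per gene, made by a sequencing provider, and per the submitters' processing notes CASAVA, HISAT2 2.0.5 and the mm10 build were used. Each value column was matched to 1 sample by name, and 0 columns were left over. Of 54409 gene identifiers shared with a GENCODE annotation of GRCm38, 98.3% had the same coordinates, as did all 10 genes described. FPKM multiplied by gene length gave whole fragments for 100% of values, with a tolerance of 0.001. The library size behind the FPKM divided by the fragments on genes was 0.863 to 0.915 for *in vivo* and 1.09 to 1.15 for *in vitro* libraries, so the FPKM carry a scaling between libraries. Chi-square per gene between replicates was 4.25 to 9.22, above sampling noise.

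Groups were compared by limma 3.58.1 in R 4.3.3 on log2(FPKM + 0.1), with 1 model over all 4 groups, moderated variances with an intensity trend and Benjamini-Hochberg adjustment over the 15708 genes tested. DESeq2, which the authors used, was not run here, and the recovered fragments were tested with limma voom as an alternative. The thresholds of 0.01 and a log2 change of 1 take their size from the study's methods, which name no adjustment and choose risen genes, whereas here p was adjusted and both directions were called. The procedure was tested on simulated data whose changes exceeded the fold required and lay in genes with ample fragments. That test did not cover changes near the threshold or genes with low levels. The 10 genes, the gene lists and the tests were chosen with earlier results of these data known, so no list is independent evidence. Named genes were all 10, all tested extracellular regulators, up to 4 called genes with the largest rise and fall at each week from each of the other lists, the nearest tested neighbours and the 2 genes most like each member. Alternatives were other pseudocounts, filters, scalings, variance models and thresholds, protein-coding genes only, the 4 libraries of a contrast only, limma voom on recovered fragments, the replicate number as a block, and each library left out in turn. Tables and figures were made in Python 3.11.15 (pandas 2.3.3, numpy 2.4.6, matplotlib 3.10.9).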

Additional observations from a re-analysis of the deposited data

Results flagged for a closer look

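Among the IGF axis genes and the lists of extracellular regulators, signalling genes and FOXO targets, the *in vivo* against *in vitro* change differed between 1 and 2 weeks for 3 genes by the interaction test of limma with Benjamini-Hochberg adjustment over all tested genes, of which 0.573% were called with a higher and 1.15% with a lower difference. *Igfbp5* had a difference of -1.31 on the log2 scale (adjusted p = 0.0034), with culture rising and the heart libraries at 38.7 to 48.7 FPKM throughout. *H19* had a difference of -2.74 (adjusted p = 0.0011), and its direction was opposite at the 2 times. *Stc2* had a difference of 1.67 (adjusted p = 0.0031), with the heart libraries rising from 10.1 and 11.6 to 27.6 and 30.8 FPKM. All 3 calls were lost without most single libraries, as given above, while the direction held. Over all tested genes, fewer were called in this test as well with any 1 library left out. No group had the 4 libraries that a test for a single deviating library needs.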

How the results depend on the processing

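The calls of *Igfbp2*, *Igfbp3* and *Igfbp5* lower *in vivo* at both weeks held in all 20 alternative settings. Of 891 values of the 9 genes under those settings, 837 kept their direction and side of the threshold, 36 lost the call and 18 changed sign. Some settings leave the fold change as it was, such as another p threshold or a library left out that lies outside the contrast. Part of this agreement was thus fixed in advance. The cause was not tested for any change given here. The number of IGF axis genes called higher *in vivo* became 0 at 1 week and at 2 weeks after quantile normalization and without scaling between libraries, and 0 at 2 weeks with only the 4 libraries of the contrast. With the replicate number as a block, the between-week call of *Igfbp5* was lost (-1.31; limma, Benjamini-Hochberg adjusted p = 0.011), leaving 0 genes lower, and it was 0 also without the variance trend. Over all tested genes, this between-week test called 11 higher and 16 lower with the block. Without the trend it called 32 and 39, against 90 and 181 in the main fit. The labels do not pair the replicates, and same-numbered libraries deviated together with a correlation across 15708 genes, which are not independent, of only -0.020 at 1 week and -0.022 at 2 weeks.

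The number higher at 2 weeks *in vivo* became 1 with a pseudocount of 1, without the filter, without scaling, without the variance trend and with voom, and 0 with only the 4 libraries of the contrast. In culture it became 1 after quantile normalization and 0 with only the 4 libraries. With only the 4 libraries, 0 of all 15708 tested genes were called in either direction for the change with time in either setting, so no other count was possible there. Of the extracellular regulators, the number lower at 1 week became 0 with a pseudocount of 1, without the filter, with only the 4 libraries and without the trend, 2 after quantile normalization and 3 without scaling, and at 2 weeks 0 with only the 4 libraries. Of the signalling genes, the number higher at 1 week became 1 with a pseudocount of 1, after quantile normalization, without scaling and with only the 4 libraries. The number lower became 2 without scaling at either week, and 0 at 2 weeks with a pseudocount of 1 or only the 4 libraries. Of the FOXO targets, the number higher became 0 without scaling at both weeks and 0 after quantile normalization at 2 weeks, and the number lower at 1 week became 1 with a pseudocount of 1 and 5 without scaling.

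Without scaling the sign turned for *Igf1* at 2 weeks (-0.23), *Igf1r* at 2 weeks (-0.19), *Igf2r* at 1 week (-0.31) and 2 weeks (-0.062) and *Igfbp4* at 1 week (-0.20), with the median of all tested genes at -0.34 and -0.32. After quantile normalization it turned for *Igf2r* (-0.094) and *Igfbp4* (-0.14) at 1 week and for the between-week difference of *Igfbp7* (-0.039). None of these values was a call.

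With each library left out in turn, the between-week difference of *Igfbp5* stayed between -1.22 and -1.39 on the log2 scale. The numbers that follow count called genes of the other lists in the same fits, each with 1 library left in a group. For the extracellular regulators the number lower was 0 to 1 at 1 week and 1 to 3 at 2 weeks. For signalling the number higher was 1 to 2 at 1 week, and the number lower 0 to 2 at 2 weeks. For the FOXO targets the number higher was 1 to 2 at 1 week and 0 to 1 at 2 weeks, and the number lower 1 to 2 at 1 week. Values near 0 that turned sign were *Igf1* and *Igf1r* with time *in vivo* (-0.11 to 0.070 and -0.11 to 0.063), *Igf2r* at 1 week (-0.021 to 0.080) and the between-week difference of *Igfbp7* (-0.029 to 0.050). With 2 libraries a group, and 1 fragment on 1 kb worth up to 0.0905 FPKM, values of genes near the filter, such as *Stc1* and *Trim63*, were the least precise.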

Other observations

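Targets of the FOXO transcription factors, which AKT removes from the nucleus when insulin or IGF receptors signal, were listed as 18 genes. All were tested. Genes that FOXO factors repress and genes that they induce are listed together, so the counts below give no direction of FOXO activity. At 1 week 1 was called higher *in vivo* and 3 lower, and at 2 weeks 1 higher and 5 lower, where 5.07% and 8.05% of all tested genes were called lower. *Txnip*, which limits glucose uptake, was the gene called higher, with log2 fold changes of 1.31 and 1.02 by limma. *Cited2*, a transcriptional co-regulator, had an FPKM of 26.7 and 29.6 in the heart against 52.8 and 61.8 in culture at 1 week, and of 30.4 and 21.7 against 96.2 and 88.7 at 2 weeks, with log2 fold changes of -1.02 and -1.84. *Trim63*, a muscle ubiquitin ligase gene, had an FPKM of 0 to 0.127 in the heart, and the culture libraries had 0.526 and 0.471 at the earlier and 2.77 and 2.48 at the later time, and was called lower at both weeks. Its call was lost with a pseudocount of 0.01 at both weeks and with a pseudocount of 1 at 1 week. *Klf15* was called lower at 1 week (-1.97), and the stress gene *Gadd45a* (-1.81), the pyruvate dehydrogenase kinase gene *Pdk4* (-1.51) and the muscle ubiquitin ligase gene *Fbxo32* (-1.0), the last named after its value was seen, at 2 weeks. The 1-week call of *Cited2* was lost without any 1 of the 4 libraries of that week (-0.91 to -1.13), and that of *Trim63* without any 1 of 7 libraries, all but replicate 2 of the 1-week *in vivo* libraries. The *Fbxo32* call was lost without replicate 1 of the 2-week *in vivo* libraries (-0.73) or either 2-week *in vitro* library, and that of *Txnip* at 2 weeks without replicate 2 of the 2-week *in vivo* libraries (0.95). Of the 9 tested cardiomyocyte markers, muscle genes like *Trim63* and *Fbxo32*, 7 were called lower *in vivo* at each week, *Pln* higher at both weeks and *Myl2* higher at 2 weeks, and their part in these values was not tested.

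Outside the pair *Igfbp2* and *Igfbp5*, the nearest tested genes on either side of the 10 genes gave 18 neighbours. By limma 3 of them were called at 1 week (1 higher and 2 lower) and 3 lower at 2 weeks, where 7.79% and 5.07% of all tested genes were called higher and lower at 1 week and 8.05% lower at 2 weeks, so counts this small are no result about the neighbours. *Top2a*, beside *Igfbp4*, encodes a topoisomerase of dividing cells and was called lower at both weeks (-1.25 and -1.66). *Parpbp*, beside *Igf1*, was called lower at 2 weeks (-1.88), *4833412C05Rik*, beside *Igf1r*, at both weeks (-2.31 and -2.51), and *H19* is given above.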
